A study of Mus musculus with 6 samples.

Results

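The genes described here are the protein-coding genes of mouse chromosome 14 in a table of genes that differ between Senp8+/- and wild-type macrophages. They were taken by chromosome and biotype as the table gives them, and 1 gene is left out by the rule that defines the set, which leaves 29 of the 714 listed genes. The libraries are RNA sequencing of bone marrow-derived macrophages from C57BL/6 mice, 3 from wild-type cells and 3 from Senp8+/- cells. The latter are called KO in the sample titles, but their genotype label names a heterozygote. The product of Senp8 is a protease that cleaves NEDD8, a small modifier related to ubiquitin, from other proteins. Both genotypes were cultured for 6 days with GM-CSF at 10 ng/ml and then given beads that carried CD47, a ligand that restrains engulfment by macrophages. RNA was taken 24 h after CD47, so each value describes cells exposed to it. How the Senp8 allele was made, the age and sex of the mice, and whether marrow was pooled are not given in the labels. The level of Senp8 was not analysed here and gives no check of the genotypes. Macrophage identity could not be checked either, since 0 of 10 macrophage markers (among them Adgre1, Csf1r and Cd68) were in the table used here.

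Levels are given as normalised counts, which are a gene's reads after division by a size factor of the library, and means carry their SD (n = 3 libraries per genotype). Every gene in the table has an unadjusted p under 0.05 and a difference of at least 2-fold, so the values below describe differences that were selected and do not test them. "Called" means an adjusted p under 0.05 in the authors' deposited table, and "rose" and "fell" are used only for called genes. Whether libraries of 1 genotype stem from separate mice or cultures is not stated in the labels, so a p-value reflects the spread among these libraries only, and part of it may be technical. Over the 714 listed genes the Senp8+/- libraries held 205957 to 217286 reads and the wild-type ones 439026 to 491156, and the depth of the whole libraries is unknown here. An annotated gene on the other strand overlaps 10 of the 29 genes, 9 of them called, and reads of such pairs cannot be told apart unless strand was counted, which is not stated.

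A chromosome is not a pathway, and its genes share a position and no single role. Neighbouring genes can nevertheless share enhancers, chromatin state and overlapping transcripts. Chromosome 14 of the mouse carries a pair of well-known immune gene families. The first encodes secreted ribonucleases of the RNase A family, which eosinophils and macrophages use against microbes and viral RNA, and the other encodes granule proteases of mast cells, neutrophils and cytotoxic lymphocytes. Single genes of macrophage metabolism and of lipid mediator sensing are scattered along it.

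Promoter sequences of 20 of the 29 genes were found in the RefSeq table for GRCm38.p6 by symbol. Each runs from 250 bases before to 50 bases after a transcript start, and the one nearest to the gene start of the deposited table was used. The sequences shown are those of Lrmda, Spryd7 and Trim13, 3 genes that rose and of which the last 2 are neighbours, and of Acod1 and Lpar6, the called genes of highest wild-type level among those that fell and have an entry. They read 5′ to 3′ on the strand of the gene, and capitals mark matches on either strand to the letters GGGCGG of the GC box, TATAAA of the TATA box, or CCAAT.
Lrmda, chr14:22019462-22019761, plus strand: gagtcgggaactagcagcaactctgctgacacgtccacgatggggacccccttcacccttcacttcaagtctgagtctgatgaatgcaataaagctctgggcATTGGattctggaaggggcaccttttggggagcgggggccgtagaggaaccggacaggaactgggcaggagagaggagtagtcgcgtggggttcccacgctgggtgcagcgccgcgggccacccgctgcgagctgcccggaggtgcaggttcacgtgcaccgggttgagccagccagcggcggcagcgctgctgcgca
Spryd7, chr14:61556837-61557136, minus strand: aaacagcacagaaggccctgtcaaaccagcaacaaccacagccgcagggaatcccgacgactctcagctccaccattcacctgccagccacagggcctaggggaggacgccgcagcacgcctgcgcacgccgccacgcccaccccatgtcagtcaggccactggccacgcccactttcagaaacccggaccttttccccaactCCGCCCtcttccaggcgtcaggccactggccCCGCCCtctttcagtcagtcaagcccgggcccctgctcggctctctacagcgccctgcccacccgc
Trim13, chr14:61597976-61598275, plus strand: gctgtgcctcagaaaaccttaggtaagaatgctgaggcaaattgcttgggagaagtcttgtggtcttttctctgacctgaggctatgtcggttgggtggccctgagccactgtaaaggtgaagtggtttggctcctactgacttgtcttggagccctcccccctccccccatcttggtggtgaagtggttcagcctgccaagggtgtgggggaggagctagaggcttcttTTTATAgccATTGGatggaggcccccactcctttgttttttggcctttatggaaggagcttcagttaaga
Acod1, chr14:103046762-103047061, plus strand: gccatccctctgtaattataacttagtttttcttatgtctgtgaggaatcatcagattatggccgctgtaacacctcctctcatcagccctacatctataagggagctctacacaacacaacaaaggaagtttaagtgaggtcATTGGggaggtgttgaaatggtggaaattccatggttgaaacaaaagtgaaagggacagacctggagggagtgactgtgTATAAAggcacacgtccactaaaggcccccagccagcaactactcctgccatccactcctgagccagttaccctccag
Lpar6, chr14:73237641-73237940, plus strand: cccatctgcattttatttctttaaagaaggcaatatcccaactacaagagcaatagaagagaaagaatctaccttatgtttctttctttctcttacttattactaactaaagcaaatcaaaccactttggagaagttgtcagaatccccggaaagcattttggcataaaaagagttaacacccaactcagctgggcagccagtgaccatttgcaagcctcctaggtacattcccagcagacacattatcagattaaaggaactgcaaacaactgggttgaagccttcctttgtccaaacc
The Spryd7 promoter held 2 GC boxes and 19 CpG dinucleotides, whereas the Trim13 promoter, from the neighbouring gene, held a TATA box, a CCAAT box and 1 CpG. A GC box was found in 5 of the 20 promoters (35.7% of the 32851 promoters of the RefSeq table), a TATA box in 2 (13.6%) and a CCAAT box in 10 (37.4%). The core of the interferon response element was matched in 1, that of Tlr11 (3.44% of all promoters), and the gamma-activated site TTCNNNGAA in 1, that of Gm16867 (8.30%). The median CpG count was 16 in the 7 promoters of genes higher in Senp8+/- that were in the table and 3 in the other 13, against 7 over all promoters. The 7 were split, with 16 to 26 in Lrmda, Spryd7, Dnajc15 and Rgcc and 1 to 4 in Trim13, Cysltr2 and Gm16867. Counts in the 13 lower genes ran from 1 to 22. No promoter was matched for Loxl2, Tnfrsf10b, Sorbs3, Phyhip, Gfra2, Adra1a, Xkr6, Cebpe or Fam167a. The lower side thus leaves out the steepest falls, and the medians do not describe them. A match describes letters in a window and says nothing on its own about a bound factor.

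In Senp8+/- cells 21 of the 29 genes were lower and 8 higher, where 79.7% of all listed genes and 83.1% of the listed protein-coding genes of other chromosomes were lower. The authors' deposited table calls, by its adjusted p, 20 of the 29, next to 41.3% of all listed genes and 42.5% of the 586 listed protein-coding genes on other chromosomes. Of these 14 fell (33.9% of all listed genes) and 6 rose (7.42%). Those that rose were Lrmda, Trim13, Spryd7, Cysltr2, Rgcc and the predicted gene Gm16867. The steepest falls were in Loxl2, Sorbs3, Tnfrsf10b, Phyhip and Xkr6, of which all but Xkr6 lie within a stretch of 1.62 Mb. Among listed protein-coding genes of other chromosomes 35.7% fell and 6.83% rose. The table was selected on this comparison, so these shares are read as a description. The 3 libraries of 1 genotype lay outside the range of the other 3 for 26 of the 29 genes, next to 89.4% of all listed genes and 88.7% of listed protein-coding genes elsewhere. The exceptions were Slc22a17, Psme2 and Nynrin, and none of these was called. The median log2 fold change in the authors' deposited table was -1.42 over the 29 genes, also where the 2 genes without wild-type reads stand at their lower bounds, and -1.48 over all listed genes. Without regard to sign, and with the authors' values for those 2 genes, the median was 2.18. It was 1.63 over listed protein-coding genes of other chromosomes, and the difference was not tested.

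**Figure D1:**
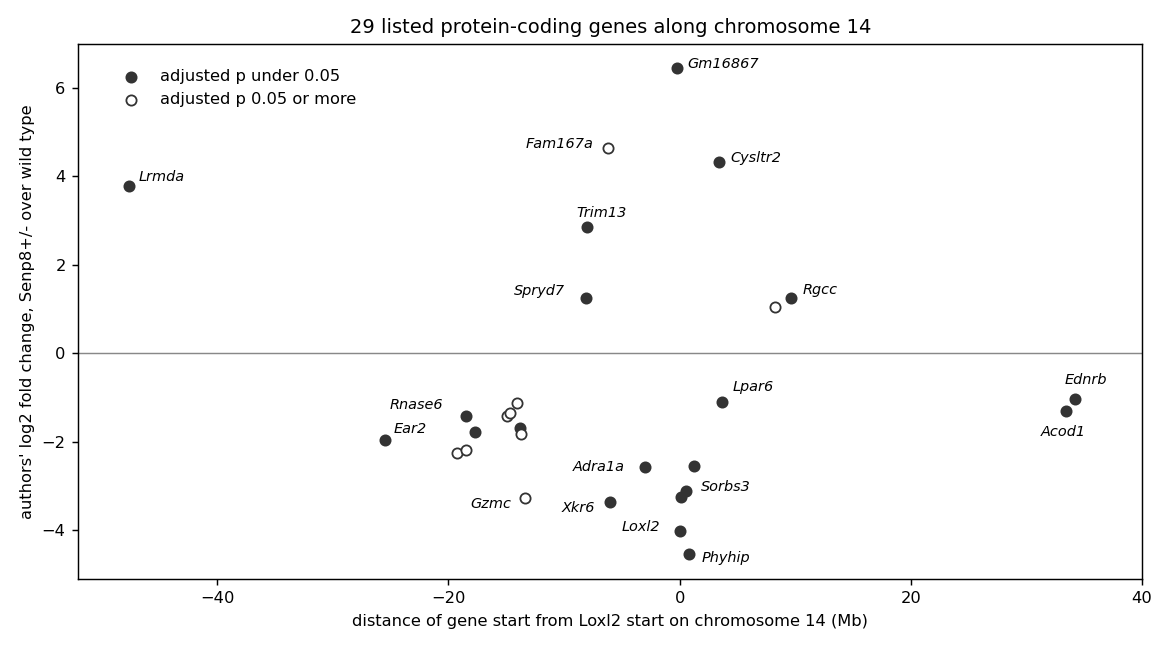
Log2 fold change, Senp8+/- over wild type, in the authors' deposited table (vertical axis) against the distance of each gene's start from that of Loxl2 in Mb (horizontal axis) for the 29 genes. Filled points are called (adjusted p under 0.05) and open points are not; the genes before Spryd7 are all lower except Lrmda, and Loxl2 and Phyhip, which lie close together, have the deepest falls. Gm16867 and Fam167a had 0 wild-type reads, so their plotted values depend on the authors' fit.

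limma on log2(value + 1), fitted to all 714 genes and adjusted by Benjamini-Hochberg over the 14694 genes of the authors' correction, put 14 of the 29 under an adjusted p of 0.05. Of these 9 were lower (20.9% of all listed genes) and 5 higher (3.78%), with 24.6% of all listed genes in both directions, and 12 of the 14 are also called by the authors. Fam167a and Gzmc, at a limma adjusted p of 0.0392 and 0.0439, passed without the authors' call. The other 8 called genes missed the limma threshold, and their limma p is given beside each. On the recovered reads edgeR's quasi-likelihood test passed 14 (25.2% of all listed genes) and DESeq2 18 (32.9%). The limma counts changed when a library was left out, which also leaves fewer libraries to test. They came to 1 higher and 1 lower without wild-type replicate 1 and to 2 and 3 without Senp8+/- replicate 2. They were 3 and 5 without Senp8+/- replicate 1, and 3 and 10 without wild-type replicate 3. Without wild-type replicate 1 the log2 estimates of Loxl2, Trim13 and Sorbs3 were -3.93, 2.99 and -2.97. With all libraries they were -3.91, 2.92 and -3.02. With every library scaled to a common median of the listed values, which raised log2 fold changes by a median of 0.96, limma passed 8 higher and 4 lower, and Ednrb and Lpar6 came to -0.0077 and -0.091. As 79.7% of the listed genes were lower, such scaling must raise the fold changes, so it cannot decide which calls hold. Shares over all listed genes were not computed for the left-out libraries or for this scaling. None of the 15 genes given in full below changed sign in these fits.

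Lrmda had the smallest p of the 29. It encodes a leucine-rich repeat protein that takes part in melanocyte differentiation, and it lies far from the other genes of the set, from 22019712 to 23056085 on the plus strand (ENSMUSG00000063458, GRCm38). Lrmda stood at 174, 185 and 251 in Senp8+/- replicates 1, 2 and 3 and at 11.9, 15.8 and 16.6 in the wild-type replicates. The lowest Senp8+/- library was thus well above the highest wild-type one. It rose 13.8-fold, and limma's log2 fold change was 3.69 ± 0.34 (SE; adjusted p = 2.50e-04). An intronic noncoding gene on the same strand within Lrmda, Gm47601, went the other way, from 37.0 ± 7.28 in wild type to 0.686 ± 1.19 in Senp8+/-. None of the other 16 genes in a list of 17 around Lrmda, which runs from Camk2g and Plau to Kcnma1 and Dlg5, was among the 29.

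Trim13 and Spryd7 lie next to each other, 41.4 kb apart with 0 annotated protein-coding genes between them, and both rose. Trim13 encodes a ubiquitin ligase of the endoplasmic reticulum membrane and is at 61598247 to 61605946 on the plus strand (ENSMUSG00000035235). Its values were 277, 306 and 354 in Senp8+/- and 44.6, 61.2 and 23.6 in wild type, a 7.24-fold rise, for which limma's log2 estimate was 2.92 ± 0.38 (SE; adjusted p = 0.00202). Spryd7 encodes a small protein with a SPRY domain, a fold that binds other proteins, and is at 61531993 to 61556886 on the minus strand (ENSMUSG00000021930). It stood at 1811, 1997 and 2124 in Senp8+/- and 795, 1205 and 512 in wild type and rose 2.36-fold. The limma estimate for Spryd7, on the log2 scale, was 1.32 ± 0.32 (SE; adjusted p = 0.0720), short of the threshold. For both genes the Senp8+/- libraries lay close together, and the wild-type ones were spread in 1 order, replicate 2 highest and replicate 3 lowest. Dleu2, a noncoding gene, overlaps Trim13 on the other strand. Of a list of 20 genes around Trim13 and Spryd7, which includes Kcnrg, Kpna3, Setdb2 and Arl11, these 2 were the only members of the set.

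**Figure D2:**
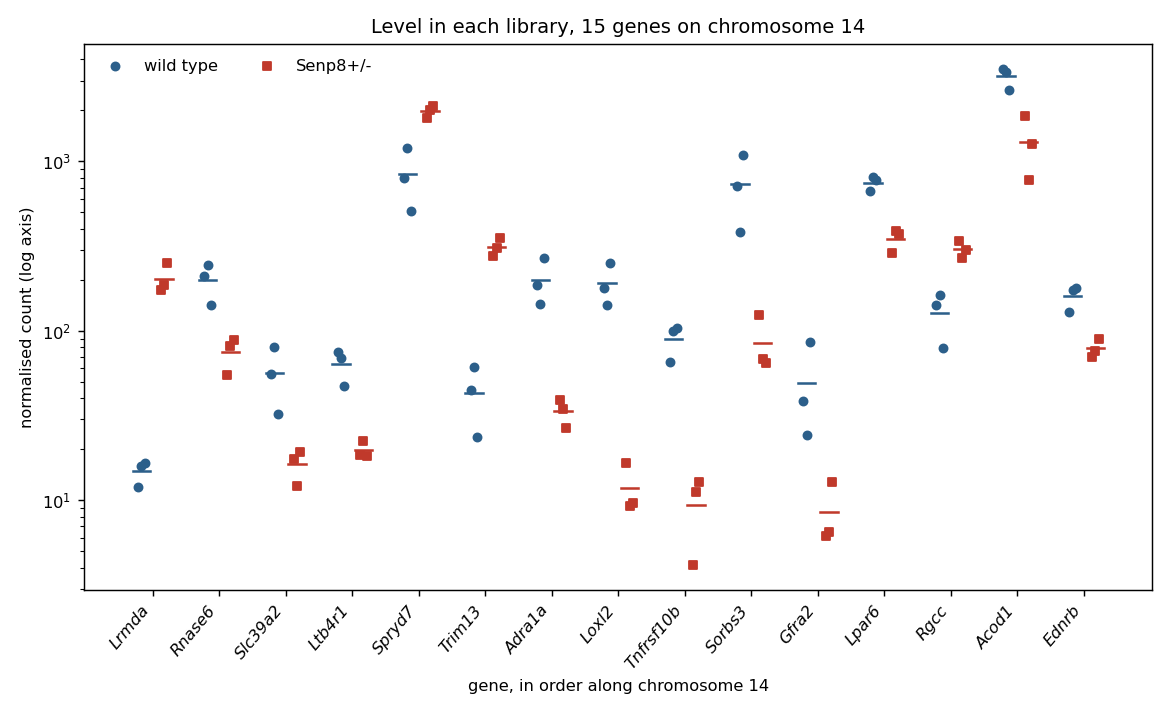
Normalised count on a log axis for each of the 6 libraries, for the 15 genes given in full, in order along chromosome 14. Circles are wild-type and squares Senp8+/- libraries, and bars are group means; no gene's groups overlap, and Lrmda, Spryd7, Trim13 and Rgcc are the 4 with the higher level in Senp8+/-.

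The other genes higher in Senp8+/- were of lower level or smaller difference. Rgcc encodes a regulator of the cell cycle that responds to complement. It stood at 341, 269 and 299.96 in Senp8+/- and 142, 164 and 78.6 in wild type and rose 2.37-fold (limma adjusted p = 0.111). Dnajc15, a co-chaperone of the mitochondrial protein import machinery, had 517 ± 228 in wild type and 1074 ± 174 in Senp8+/- and was not called. It showed the wild-type order of Trim13, Spryd7 and Rgcc, replicate 2 highest and replicate 3 lowest. Gm16867 rose from 0 reads in the 3 wild-type libraries to 9.64 to 24.7 in Senp8+/-, at least 5.30-fold higher against a floor of 3 reads per library, which covers counting error only. It is a predicted gene at 69363504 to 69503362 that overlaps Entpd4 and a pseudogene, Gm21451, in the annotation, so which of these its reads come from is uncertain. Fam167a, which was not called (the authors' table writes its adjusted p as 1), had 0 reads in wild type and 2.79 to 6.43 in Senp8+/-, at least 1.52-fold higher by the same floor.

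The stretch from Gm16867 to Gfra2, which was chosen after its values were seen, is 1.62 Mb long and holds 33 annotated protein-coding genes. 6 of these are in the set and each was called (41.3% of all listed genes), 5 lower (33.9%) and 1, Gm16867, higher (7.42%). The other 27, among them Entpd4b, R3hcc1, Chmp7, Bin3, Pdlim2, Slc39a14 and Xpo7, were not in the table used here. Such a gene had a p of 0.05 or more, a difference under 2-fold, or was not tested, and these cannot be told apart. 3 noncoding genes of the stretch were listed and fell as well, where 33.9% of all listed genes fell. 4930480K23Rik, which ends just before Tnfrsf10b on the same strand, fell from 46.1 ± 2.17 to 5.81 ± 4.44. Gm33524 fell from 9.56 ± 2.65 to 0 reads, and Gm49417, antisense to Sorbs3 over 6.67 kb, fell from 40.4 ± 4.82 to 7.92 ± 2.81. Such falls were not particular to the stretch, as 7 of the 8 noncoding genes and pseudogenes listed on chromosome 14 were called. Outside it Gm47601 and the pseudogenes Gm17222 (154 ± 68.6 to 2.02 ± 0.145) and Gm17121 (134 ± 100 to 0 reads) fell, and Gm30246 rose.

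Loxl2 encodes a secreted lysyl oxidase that cross-links collagen and elastin, and lies at 69609068 to 69695834 on the plus strand (ENSMUSG00000034205). Wild-type libraries held 178, 141 and 252 and Senp8+/- libraries 16.5, 9.30 and 9.64, so the groups were far apart. The fall was 16.1-fold, and limma estimated -3.91 ± 0.38 (SE; adjusted p = 3.16e-04) on the log2 scale.

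Tnfrsf10b encodes the mouse receptor for TRAIL, a death ligand, and lies 71.6 kb beyond Loxl2 at 69767472 to 69784411. It stood at 65.4, 99.2 and 104 in wild type and 4.12, 11.2 and 12.9 in Senp8+/- and fell 9.55-fold. R3hcc1 and Chmp7, the 2 annotated protein-coding genes between Loxl2 and Tnfrsf10b, were not in the table used here.

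Sorbs3 encodes vinexin, an adaptor that binds vinculin at cell adhesions, and lies at 70180468 to 70211989 on the minus strand (ENSMUSG00000022091). Its normalised counts were the highest among the listed genes of the stretch, at 719, 382 and 1094 in wild type and 124, 67.9 and 64.3 in Senp8+/-. The fall was 8.58-fold, -3.02 ± 0.41 (SE; adjusted p = 0.00275) on the log2 scale by limma. The wild-type libraries differed from each other by more than the Loxl2 ones, with replicate 3 at 2.86 times replicate 2.

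Phyhip and Gfra2 close the stretch. Phyhip, whose product binds phytanoyl-CoA hydroxylase, stood at 30.9 ± 13.3 in wild type and 1.27 ± 1.41 in Senp8+/-. Its fall of 24.2-fold rests on few Senp8+/- reads, and without Senp8+/- replicate 2 the Senp8+/- mean was 0.515. Gfra2, a co-receptor for the growth factor neurturin, stood at 38.6, 24.3 and 85.6 in wild type and 6.18, 6.51 and 12.9 in Senp8+/- and fell 5.81-fold. Without wild-type replicate 3 the wild-type mean of Gfra2 was 31.5 in place of 49.5. A list of 36 genes around Loxl2 and Sorbs3 held 4 of the set, Loxl2, Tnfrsf10b, Sorbs3 and Phyhip. Each fell, next to 33.9% of all listed genes.

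**Figure D3:**
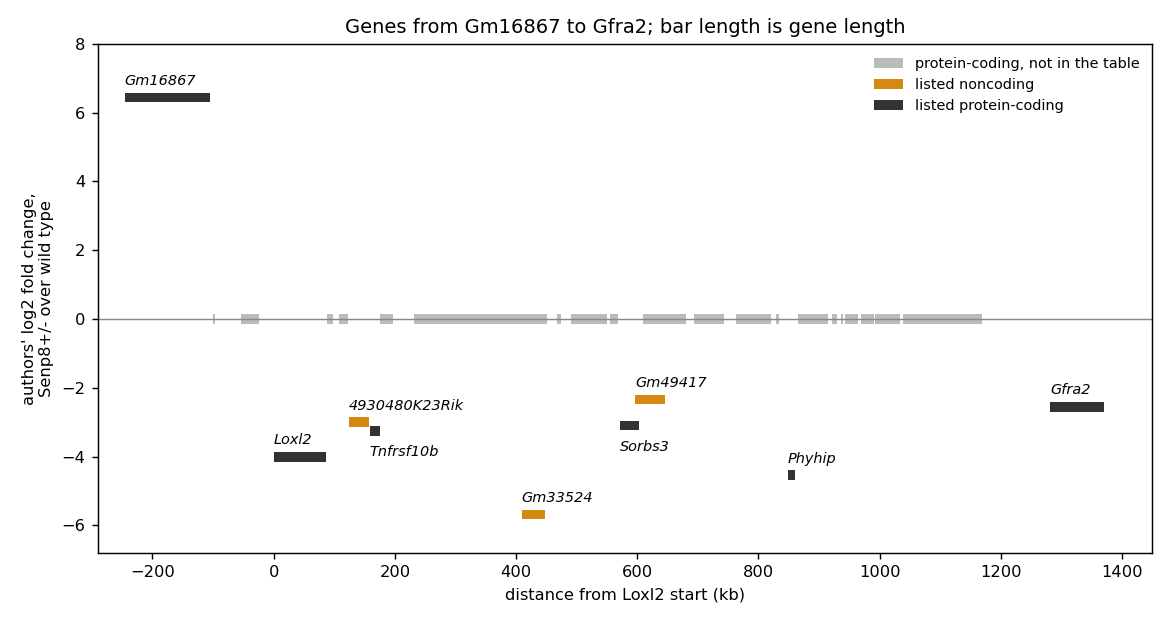
Map of the stretch from Gm16867 to Gfra2, with each gene drawn as a bar over its length (horizontal axis, kb from the start of Loxl2) at its log2 fold change in the authors' deposited table (vertical axis). Black bars are the 6 listed protein-coding genes, orange bars 3 listed noncoding genes, and grey bars, drawn at 0 for position only, the 27 protein-coding genes that were not in the table; every listed gene but Gm16867 is lower in Senp8+/-.

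2 genes that fell lie between Trim13 and this stretch. Adra1a encodes the alpha-1A adrenergic receptor, through which noradrenaline raises calcium in the cell. It stood at 186, 144 and 268 in wild type and 39.1, 34.4 and 26.8 in Senp8+/- and fell 5.96-fold. The 2 genotypes were far apart for Adra1a, as the lowest wild-type library was above the highest Senp8+/- one. Xkr6, a membrane protein of the XK family, stood at 27.8 ± 9.33 in wild type and 2.80 ± 3.15 in Senp8+/- and fell 9.93-fold. Without Senp8+/- replicate 3 its Senp8+/- mean was 0.980 in place of 2.80.

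Cysltr2, a receptor for cysteinyl leukotrienes, rose from 1.06 ± 1.83 in wild type to 19.9 ± 6.15 in Senp8+/-. Only 3 wild-type reads, all in replicate 2, stand against 60 in Senp8+/-, a ratio of 20.8 with a 95% exact binomial interval of 6.79 to 104 that covers counting error only. Ltb4r1, the high-affinity receptor for leukotriene B4 on myeloid cells, fell 3.23-fold, from 75.3, 68.6 and 47.2 in wild type to 18.5, 22.3 and 18.2 in Senp8+/- (limma adjusted p = 0.0509). Lpar6, a receptor for lysophosphatidic acid that lies within the gene Rb1 on the other strand, fell 2.14-fold, from 665, 811 and 774 to 286, 391 and 374, and the wild-type libraries were all above the Senp8+/- ones (limma adjusted p = 0.0876). It is separated from Cysltr2 by 189 kb and 1 annotated protein-coding gene, and the 2 neighbours moved in opposite directions. Ednrb, the type B receptor for endothelins, which are peptides, fell 2.04-fold, from 129.7, 174 and 178 to 70.0, 76.3 and 90.0, the smallest log2 fold change of the set in the authors' deposited table. The call of Ednrb was lost in each refit, with an adjusted p of 0.217 by limma, 0.307 by edgeR and 0.144 by DESeq2.

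Of 17 genes of interferon response and immunity on chromosome 14, 6 were in the set. Of these 4 fell (Ltb4r1, Tnfrsf10b, Lpar6 and Acod1), 1 rose (Cysltr2) and 1 was not called (Psme2). Among all listed genes 33.9% fell and 7.42% rose. Acod1 makes itaconate, a metabolite of activated macrophages. It stood at 3518, 3365 and 2640.3 in wild type and 1843, 771 and 1273 in Senp8+/- and fell 2.45-fold (limma adjusted p = 0.0648). Psme2, a subunit of the PA28 proteasome activator that interferon induces, stood at 4419.9 ± 2408 in wild type and 2039.5 ± 520.4 in Senp8+/-. Wild-type replicate 3 lay inside the Senp8+/- range for Psme2, and the authors' adjusted p was 0.277. Tlr11, a receptor for profilin of protozoan parasites, was not called at 7.84 ± 3.87 in wild type and 1.64 ± 1.46 in Senp8+/-, and its unadjusted p in the authors' deposited table, 0.0442, was the largest there among the 29. Without Senp8+/- replicate 2 the Senp8+/- mean of Tlr11 was 1.07. The other genes of that list, which include Irf9, Ripk3, Psme1 and Gpr183, were not in the set.

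Of 12 genes of the ribonuclease family, 3 were in the set, and 2 of them fell (33.9% of all listed genes). The 3 do not lie together, since Ear2 starts at 44102654 and Rnase6 and Rnase2b start at 51123908 and 51162260. Rnase6, an antimicrobial ribonuclease, stood at 212, 244 and 142 in wild type and 54.6, 80.9 and 87.8 in Senp8+/- and fell 2.67-fold (limma adjusted p = 0.0833). Ear2, an eosinophil-associated ribonuclease, fell 3.89-fold, from 28.8 ± 6.06 to 7.40 ± 1.20. The adjusted p of Ear2 was 0.0425 by limma and 0.0258 by edgeR, but 0.0784 by DESeq2. Rnase2b was not called at 9.20 ± 5.05 and 2.02 ± 0.145. Ear2 and Rnase2b belong to a family of close copies on this chromosome, so the counting may have split their reads and their levels are uncertain.

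Of 12 genes of granule proteases, which include those of granulocytes, mast cells and cytotoxic lymphocytes, only Gzmc was in the set. Gzmc, a granzyme of cytotoxic lymphocytes, was not called at 12.97 ± 6.76 in wild type and 1.35 ± 0.615 in Senp8+/-. It too has close relatives beside it. Cebpe, a transcription factor of late granulocyte differentiation, was not called at 16.97 ± 3.35 and 6.32 ± 1.05. Markers of other cell types are set beside these genes, where 79.7% of all listed genes were lower and 33.9% fell. Of 20 granulocyte markers 4 were listed, all lower, of which 3 fell (Csf3r, Retnlg and Prtn3), and their summed level ran from 363 to 564 in Senp8+/- and from 1201 to 1580.5 in wild type, with Retnlg at 0 in Senp8+/-. Of 18 cytotoxic lymphocyte markers 9 were listed, all lower, and 5 fell, with sums of 26.05 to 37.5 and 165 to 238 and with Gzma and Ncr1 at 0 in Senp8+/-. Of 18 stromal markers 9 were listed, all lower, and 3 fell, near the share of all listed genes, with sums of 397 to 722 and 723 to 1805. Their part in the values of the chromosome 14 genes was not tested. In these bulk libraries fewer cells of a type and less RNA per cell cannot be told apart.

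Slc39a2, a zinc importer, fell 3.44-fold, from 55.5, 80.2 and 32.3 in wild type to 17.5, 12.1 and 19.3 in Senp8+/- (limma adjusted p = 0.0903). Slc22a17, a receptor for lipocalin 2, was not called at 23.2 ± 12.1 and 9.15 ± 2.31, and neither was Nynrin, a gene derived from a retroviral integrase, at 19.1 ± 9.87 and 5.40 ± 3.36. Without Senp8+/- replicate 1 the Senp8+/- mean of Nynrin was 3.47. A list of 16 macrophage genes of chromosome 14, which includes Stab1, Ctsb, Lgals3, Mmp14 and Lcp1, had 0 members in the set.

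Levels can be ranked between genes only per length. In normalised counts per kb of gene length as the deposited table gives it, Psme2 was highest in both genotypes, at 2506 in wild type and 1156 in Senp8+/-. In wild type it was followed by Acod1 at 1210.1, Spryd7 at 209 and Sorbs3 at 202. The wild-type libraries of Psme2 and Acod1 overlap, as do those of Spryd7 and Sorbs3. In Senp8+/- Spryd7 at 494 stood beside Acod1 at 494 with overlapping libraries, Rgcc was at 330.3, while Sorbs3 was at 23.5, below Trim13 at 189. At the low end, 5 of the 29 genes had a mean under 10 normalised counts over the 6 libraries, and of these only Gm16867 was called.

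The wild-type libraries varied among themselves in an order that differed between the groups of genes below, which were split after their values were seen. Of the 7 genes lower in Senp8+/- from Xkr6 to Gfra2, all 7 were highest in wild-type replicate 3, and 6 were lowest in replicate 2. The lead of replicate 3 was small for Tnfrsf10b (104 against 99.2 in replicate 2) and Phyhip (41.1 against 35.7 in replicate 1). Of the 11 lower genes before Spryd7, 2 were highest in replicate 3, and 7 were lowest there. The lower genes past Gfra2, namely Lpar6, Acod1 and Ednrb, were highest in replicates 2, 1 and 3 in that order. Over all 21 lower genes, 10 were highest in replicate 3 (47.6%) and 8 were lowest there (38.1%). Of the 6 genes higher in Senp8+/- with wild-type reads, 5 were highest in replicate 2. The share was 37.6% over 93 higher protein-coding genes listed on other chromosomes. Over the 487 lower protein-coding genes listed on other chromosomes, 34.7% were highest in replicate 3, 47.2% lowest there and 37.8% lowest in replicate 2. The wild-type library with the most Loxl2, Sorbs3, Adra1a and Gfra2 had the least Trim13, Spryd7, Dnajc15 and Rgcc. The genes of a group are not independent of each other, and no test was made of these counts.

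**Figure D4:**
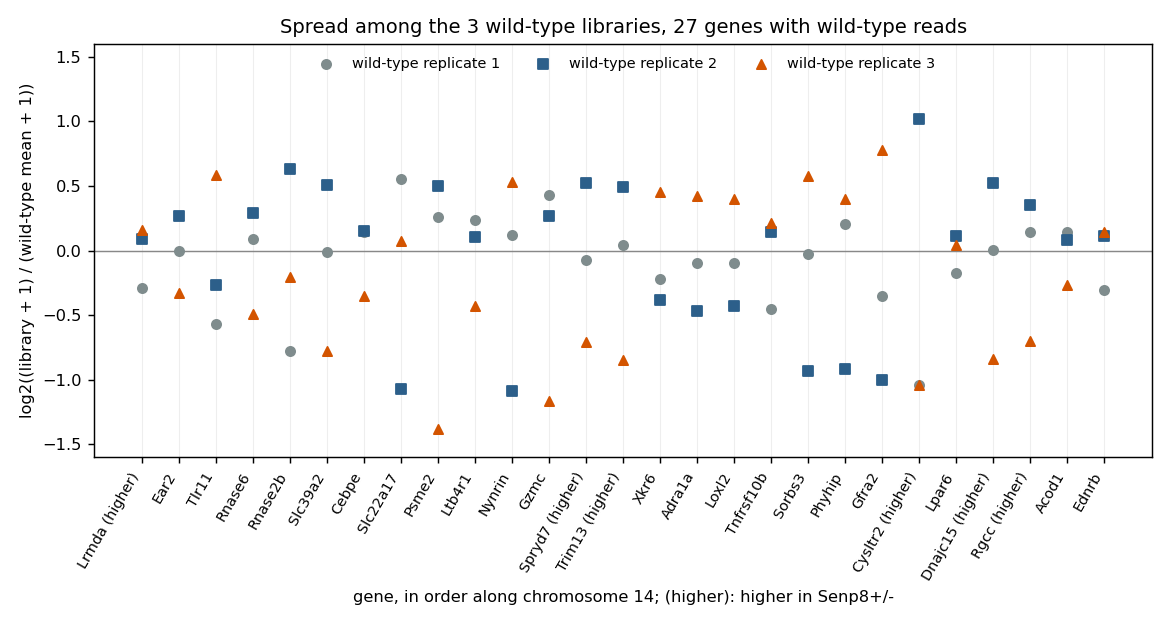
Log2 of each wild-type library over the wild-type mean, both with 1 added (vertical axis), for the 27 genes with wild-type reads in order along chromosome 14 (horizontal axis). Triangles (replicate 3) lie above squares (replicate 2) for the 7 genes from Xkr6 to Gfra2, though narrowly for Tnfrsf10b. They lie below the squares for Spryd7, Trim13, Dnajc15 and Rgcc.

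Set against the annotation, the 20 called genes were 2.22% of the 902 protein-coding genes that GENCODE M21 places on chromosome 14. On the other 20 chromosomes the share ran from 0.413% to 3.13%, with 1.18% in all (249 of 21036). Chromosome 17, which carries the MHC, was above chromosome 14. How many genes the authors tested on each chromosome is unknown here, and the difference was not tested. Within chromosome 14 the calls were uneven. In windows of 10 Mb with at least 20 annotated protein-coding genes, the one from 60 to 70 Mb held 7 called genes among 99 and the one from 70 to 80 Mb 6 among 77. These were the fifth and the fourth highest shares of 253 windows, and that from 100 to 110 Mb, with Acod1 and Ednrb as 2 called among 21, was the first. The windows from 0 to 20 Mb, from 30 to 40 Mb and from 120 to 130 Mb held 0.

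**Figure D5:**
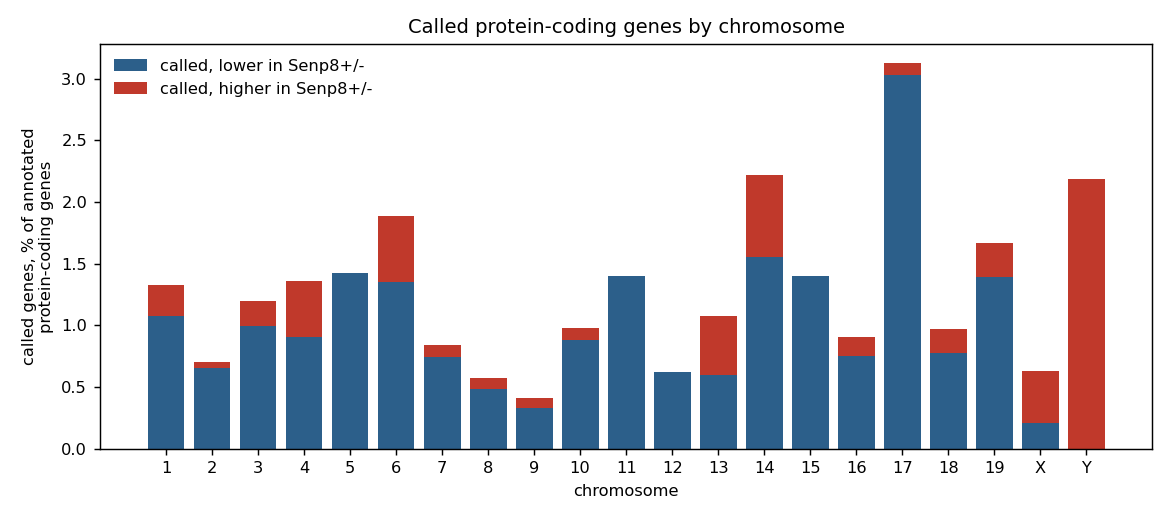
Called protein-coding genes as a percentage of all annotated protein-coding genes of each chromosome (bars from 0), split into those lower and those higher in Senp8+/-. Chromosome 14 stands at 2.22% and chromosome 17 at 3.13%; Y holds 4 called genes, all higher.

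Y-linked genes also differed between the genotypes. All 4 that were listed (Ddx3y, Eif2s3y, Uty and Gm47283) rose, and their summed level ran from 2140.0 to 2804 in Senp8+/- and from 851 to 1076 in wild type. Their part in the values of the chromosome 14 genes was not tested.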

How the data were processed

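Poly-A RNA sequencing libraries, 3 wild-type and 3 Senp8+/-, were compared, grouped by label. The tools named in the submitters' processing notes are HISAT2 2.0.5 (alignment) and featureCounts 1.5.0-p3 (counting). Not given in the sources used here are the build, annotation, counting settings, strand and testing tool. Each library's values are a signal as deposited by the authors, namely normalised read counts. The whole reads were recovered from these steps (100% of values whole within 1e-06 of a read). The log2 fold changes, p-values and adjusted p-values are also as deposited by the authors. The table is a selection (p up to 0.0499, absolute log2 fold changes from 1.0001) and gives no library depth. All 29 genes had the position, symbol and biotype of GENCODE M21 (GRCm38), and positions are named so on that basis.

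limma 3.58.1 (R 4.3.3, trend) was fitted to log2(value + 1) over 714 genes, with 1 coefficient for genotype and adjustment over 14694 genes. This scale understates the changes of low genes. edgeR 4.0.16 and DESeq2 1.42.0 on whole reads, other pseudocounts, a filter, a rescaling, a replicate block and leaving out each library were alternatives. The fits were also run on simulated counts, with the same assumed spread for every gene and no selection of genes. That run checks the working of the fits and not their error rates on these data. Genes given in full are Lrmda, Loxl2, Sorbs3, Trim13 and Spryd7 and each called gene with a mean of at least 26.8, the median of the table (15 genes). The 29 genes, the gene lists and the marker lists were chosen with earlier results of these data known, and the lists of other cell types were written after the table was seen. Columns outside this series numbered 0.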

Additional observations from a re-analysis of the deposited data

How the results depend on the processing

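The 20 genes called by the authors came to 14 at an adjusted p under 0.01 and to 19 with a mean of at least 10. The limma counts of 5 higher and 9 lower stayed within 1.5 times under a pseudocount of 0.5 (5 and 6) or 5 (4 and 9), with edgeR (4 and 10) and with DESeq2 (6 and 12). The filter on a mean of at least 10 left 3 higher, since it removes Gm16867 and Fam167a. Leaving out 1 library gave 1 to 5 higher and 1 to 10 lower. Scaling each library to the same median of the 714 values raised log2 fold changes by a median of 0.96 and gave 8 higher and 4 lower. Such a rise follows from the list itself, in which 79.7% of genes were lower. The sign of Psme2, not called, then turned (0.070), and those of Ednrb (-0.0077) and Lpar6 (-0.091) came close to 0. None of the 15 genes given in full turned sign in any of the alternatives. No pairing of the libraries by replicate number was seen, though 3 libraries per genotype cannot exclude one. Deviations of same-numbered libraries correlated at 0.010, 0.044 and -0.24 over 714 genes, and not every library correlated best with its own number. With a replicate block the counts were 4 higher and 8 lower. Total depth is unknown here, and genes with under about 10 normalised counts rest on few reads.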
